A study of Saccharomyces cerevisiae with 10 samples.

Results

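The open reading frames of the Ty retrotransposons, the mobile elements of budding yeast, were followed across 5 strains. They were chosen by name, as Gag and Gag-Pol frames of Ty elements, without use of their measured values. Of 49 named frames, 47 were found among the 6663 features of the table, and YIL082W-A was not analysed here. The other name, YOR343C-B, is a RefSeq synonym of YOR343W-B, which the table holds and which is given apart below. The strains were Saccharomyces cerevisiae BY4741, a haploid laboratory strain that carries deletions of HIS3, LEU2, MET15 and URA3. They were the wild type (WT), set1∆, set5∆, the double deletion set1∆ set5∆, and SET5 Y402A, in which Set5 carries a tyrosine-to-alanine substitution. Set1 methylates lysine 4 of histone H3, and Set5 methylates lysines in the tail of histone H4. Cultures were harvested in mid-log growth in rich glucose medium (YPD) at 30 °C. There were 10 libraries, 2 biological replicates of each strain, but the table gives 1 FPKM value (fragments per kilobase of transcript, scaled to mapped fragments) per feature and strain. The depth is unknown, no spread between replicates can be had, and none of the differences below has a replicate check or a test.

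Ty elements resemble retroviruses without an envelope gene. Each is bounded by long terminal repeats, whose upstream copy holds the promoter, and is transcribed into 1 RNA that serves as message and as genome. Gag forms the shell of the virus-like particle, and Pol supplies protease, integrase and reverse transcriptase. Pol is made only when a ribosome slips 1 base forward near the end of gag, which yields the Gag-Pol fusion. Ty1, Ty2, Ty4 and Ty5 belong to the copia group, and Ty3 to the gypsy group. Ty1 and Ty3 insert beside genes read by RNA polymerase III, most of them tRNA genes.

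By the RefSeq annotation of assembly R64, 33 of the 47 frames were Ty1, 9 were Ty2 and 2 were Ty3. The frames YDR170W-A and YLR035C-A lie outside an annotated element and were placed in Ty1 because 58.8% and 95.6% of their 50-base sequences are found in other Ty1 frames. The 3 IDs YIL080W, YIL082W and YPR002C-A are not annotated in R64 and are given without a family. The IDs YIL080W and YIL082W resemble that of YIL082W-A, a Ty3 frame in R64. Without R64 coordinates they could not be placed, so the Ty3 values below leave them out and cover 1 element. In the table, 31 Ty1 frames and all 9 Ty2 frames were Gag-Pol frames, among them YAR009C, which R64 calls truncated. The Gag-only members were YAR010C and YDR170W-A in Ty1 and YGR109W-A in Ty3. The table also holds YLR256W-A, a Ty1 Gag frame that is not among the members.

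The start of the upstream long terminal repeat is shown because it lies in the part that drives transcription, and because it sets Ty3 apart from Ty1 and Ty2. The sequences below are the first 100 bases of that repeat in 1 element of each family, read 5′ to 3′ from the R64 genome. Capitals mark TGAAACA, the core of the pheromone response element bound by the transcription factor Ste12.
Ty1 of YER138C, chrV:449221-449320, minus strand: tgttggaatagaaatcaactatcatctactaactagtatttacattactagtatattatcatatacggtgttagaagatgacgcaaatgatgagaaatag
Ty2 of YCL019W, chrIII:84811-84910, plus strand: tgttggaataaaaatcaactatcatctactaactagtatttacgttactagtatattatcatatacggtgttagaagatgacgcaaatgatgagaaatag
Ty3 of YGR109W-B, chrVII:707195-707294, plus strand: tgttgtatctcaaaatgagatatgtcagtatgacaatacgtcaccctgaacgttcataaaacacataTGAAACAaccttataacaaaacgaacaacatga
The Ty1 and Ty2 stretches had the same base at 98 of 100 positions, and each matched the Ty3 stretch at 32. In the whole upstream repeats, searched on both strands, TGAAACA was found in 8 of 29 Ty1 elements, 0 of 9 Ty2 elements and the 1 Ty3 element. It was found in 8.04% of the 340-base windows upstream of 5910 other coding genes. The letters TATAAA were found in the repeats of all 29 Ty1 elements, all 9 Ty2 elements and the Ty3 element, and in 50.7% of the windows.

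The junction of gag and pol is shown because it ties the Gag and Gag-Pol frames to the same RNA. Capitals mark the bases of the forward slip in these 40-base stretches of the same 3 elements.
Ty1 of YER138C, chrV:447704-447743, minus strand: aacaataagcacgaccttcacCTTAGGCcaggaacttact
Ty2 of YCL019W, chrIII:86371-86410, plus strand: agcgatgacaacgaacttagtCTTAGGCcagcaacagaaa
Ty3 of YGR109W-B, chrVII:708439-708478, plus strand: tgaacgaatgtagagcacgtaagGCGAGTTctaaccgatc
At the annotated junction, CTTAGGC stood in 29 of 29 Ty1 and 9 of 9 Ty2 frames with an annotated slip, and GCGAGTT in the Ty3 frame. In elements with an annotated slip, Gag is thus read from the RNA of the fusion frame. Among the Gag-only members this applies to the Ty3 frame YGR109W-A, which is part of YGR109W-B, so the levels of these frames overlap. The Ty1 Gag frame YAR010C lies in the element of YAR009C, a truncated frame without an annotated slip. The Ty1 Gag frame YDR170W-A lies outside an annotated element and has no such partner.

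Copies within a family could hardly be told apart by sequence. A Ty1 frame had a median of 0.958% of its 50-base sequences found once in the genome, and a Ty2 frame 3.13%. The least shared Ty1 frame was YDR170W-A, a lone Gag frame, at 41.2%, and the least shared Ty2 frame was YBL100W-B at 15.7%. The 31 Ty1 Gag-Pol frames shared a median of 5.46% of these sequences with Ty2 frames, and pairs of Ty1 and Ty3 frames shared 0%. The sources used here give neither the read length nor the authors' handling of reads that match several copies. YFL002W-A and YGR161W-B, which share 100% of these sequences, both stood at 33.3 FPKM in WT, 31.4 in set5∆, 33.9 in SET5 Y402A, 39.1 in set1∆ and 43.2 in set1∆ set5∆. Frames were therefore read as families, and a count of frames is not a count of independent measurements.

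Levels ordered the families in the same way in all 5 strains. Ty1 frames ranged from 16.8 to 131 FPKM in the wild type with a median of 72.3, Ty2 frames from 14.2 to 36.4 with a median of 27.6, and the 2 Ty3 frames stood at 9.39 and 11.5. YPR002C-A, which has no family here, was the highest member at 418 FPKM. All Ty members together made up 0.142% of the summed FPKM of the wild type, 0.144% of that of set5∆, 0.155% of that of SET5 Y402A, 0.174% of that of set1∆ and 0.233% of that of set1∆ set5∆. These shares also depend on the sum of all features, 2.37e+06 FPKM in the wild type and 2.06e+06 in set1∆ set5∆. The summed FPKM of the members in the double deletion was 1.43 times that of the wild type, where YPR002C-A alone gave 418 of 3359 FPKM. The targeted genes followed the labels, with SET1 at 24.3 FPKM in the wild type and 0.0324 in the double deletion, and SET5 at 34.6 and 0.0167. The 47 frames all had a mean above 1 FPKM, as did 6541 features in all, and 0 of the 47 were listed at 0 in any strain.

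**Figure D1:**
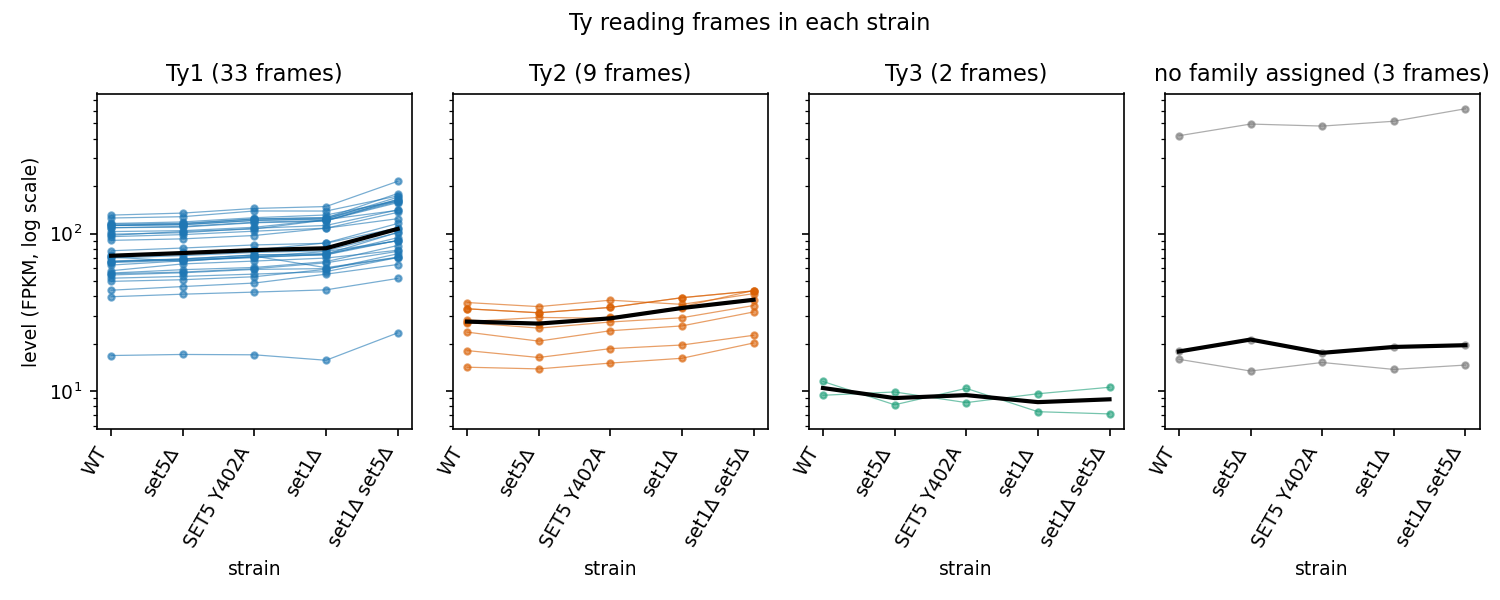
Level of each Ty frame (FPKM, log axis) in the 5 strains, by family. Each thin line is 1 frame and the thick black line is the family median. The Ty1 median lay between 72.3 FPKM in the wild type and 107 in set1∆ set5∆, and the Ty2 median between 26.8 in set5∆ and 37.9 in set1∆ set5∆.

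The first comparison asked how Ty RNA stands when both methyltransferase genes are missing. Ty1 and Ty2 frames were higher in set1∆ set5∆ than in the wild type in nearly every copy, by steps that differed between copies, and Ty3 frames were not higher as a pair. The Ty1 median was 107 FPKM against 72.3, and the Ty2 median 37.9 against 27.6. On the log2 scale of (FPKM + 1), the median ratio was 0.51 over the 33 Ty1 frames, 0.37 over the 9 Ty2 frames and -0.23 over the 2 Ty3 frames. The median over all 6541 features was 0.01.

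In counts, 32 of 33 Ty1 frames and 9 of 9 Ty2 frames were above the wild type, where 50.6% of all features were. At least 25% higher in FPKM + 1 were 32 Ty1 and 7 Ty2 frames, against 18.6% of all features. At least 1.5-fold higher were 8 Ty1 frames and 1 Ty2 frame, against 8.21% of all features, and 0 of 47 reached 2-fold, against 2.83%. The Ty1 and Ty2 difference was thus seen as a shift of most frames below 2-fold, while the frames past 1.5-fold were 9 of 47 members.

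Among Ty1 frames, YDR365W-B had both the highest mean level and the highest ratio. It stood at 131 FPKM in WT, 135 in set5∆, 144 in SET5 Y402A, 148 in set1∆ and 215 in set1∆ set5∆, a log2 ratio of 0.71 for the double deletion to the wild type. Its level in the double deletion stood apart from the other strains. YDR316W-B, the middle Ty1 frame by mean level, stood at 72.3, 75.2, 78.5, 80.6 and 107 FPKM in the same strain order, with a ratio of 0.56. YAR009C, the truncated frame on chromosome I, stood at 97.5, 103, 107, 122 and 159 FPKM, with a ratio of 0.70.

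The 2 Gag-only Ty1 members had a median ratio of 0.23 in the double deletion, against 0.51 over the 31 Ty1 Gag-Pol frames, and differed from each other. YDR170W-A, the lowest Ty1 frame by mean level and the one with the most sequence of its own, stood at 16.8 FPKM in WT, 17.1 in set5∆, 17.0 in SET5 Y402A, 15.7 in set1∆ and 23.4 in set1∆ set5∆. It was thus slightly lower in set1∆ (-0.09) and higher in the double deletion (0.45). YAR010C, the Gag frame beside YAR009C, stood at 70.9, 66.5, 71.8, 60.7 and 70.8 FPKM in that order, and its ratio to the wild type was -0.22 in set1∆ and -0.00 in the double deletion (0.20 with strains scaled to equal sums). It shares 100% of its 50-base sequences with YPR137C-B, a Gag-Pol frame that stood at 90.5 FPKM in the wild type and 136 in the double deletion. How the table's processing divided the shared reads between them was not tested. The Gag frame outside the members, YLR256W-A, stood at 66.3 FPKM in WT, 62.9 in set5∆, 69.7 in SET5 Y402A, 53.9 in set1∆ and 72.4 in set1∆ set5∆. Its ratios of -0.29 in set1∆ and 0.12 in the double deletion lay below those of all 31 Ty1 Gag-Pol members.

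Among Ty2 frames, YOR192C-B had the highest ratio. It stood at 27.6 FPKM in WT, 29.3 in set5∆, 28.9 in SET5 Y402A, 34.3 in set1∆ and 43.5 in set1∆ set5∆, with a log2 ratio of 0.64 for the double deletion. YLR410W-B, the highest Ty2 frame by mean level, had the lowest ratio, at 36.4, 34.3, 37.7, 35.5 and 41.5 FPKM in that order and a ratio of 0.18. YCL019W, the middle frame, stood at 28.3 FPKM in the wild type and 37.9 in the double deletion. Its element lies beside LEU2, a gene deleted in these strains, and whether the element itself is present in them was not tested. Only 1.56% of the short sequences of YCL019W are found once in the genome. Its level thus cannot be told from that of other copies, and it was kept among the 9 Ty2 frames. YBL100W-B, the lowest and least shared, stood at 14.2 and 20.2 FPKM. All 9 were highest in the double deletion, as were 27% of all features. The Ty2 frame YOR343W-B, outside the 47, had a ratio of 0.35, within the range of the 9.

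**Figure D2:**
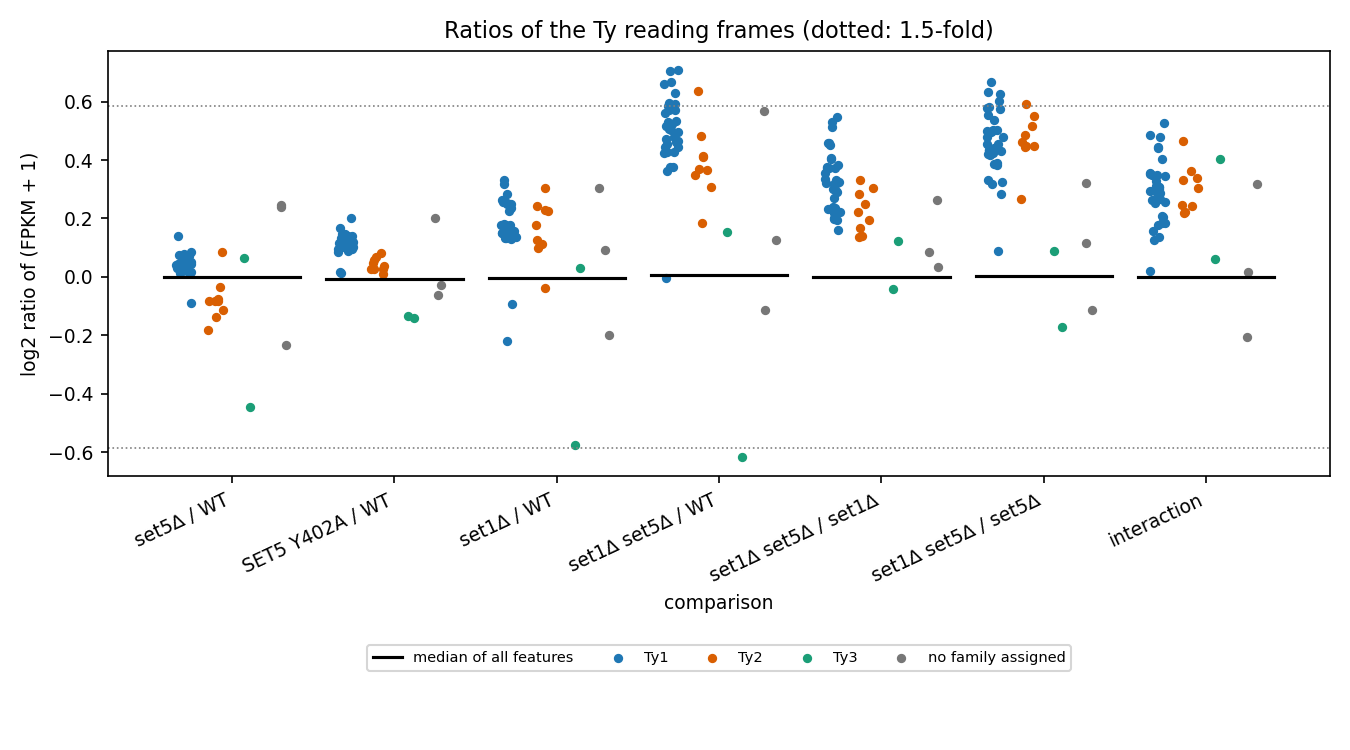
Log2 ratio of (FPKM + 1) of each Ty frame in 7 comparisons, by family, with the median of all features as a black bar and 1.5-fold as dotted lines. In set1∆ set5∆ against the wild type the Ty1 points lie between -0.00 and 0.71 and the Ty2 points between 0.18 and 0.64, while the Ty3 points lie at -0.62 and 0.15.

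The 2 frames placed in Ty3 did not follow Ty1 and Ty2. Its Gag frame YGR109W-A stood at 11.5 FPKM in WT, 8.17 in set5∆, 10.4 in SET5 Y402A, 7.38 in set1∆ and 7.15 in set1∆ set5∆. The Gag-Pol frame YGR109W-B stood at 9.39, 9.85, 8.43, 9.60 and 10.6 FPKM in the same order. The Gag frame was therefore lower in the double deletion (-0.62) while the fusion frame, of which it is a part, was near its wild-type level (0.15, and -0.06 with quantile-normalized values). Both frames belong to 1 element, and their reads overlap. The Gag frame was the 1 member at least 1.5-fold lower, against 2.92% of all features.

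The 3 members without a family also differed among themselves. YPR002C-A stood at 418 FPKM in WT, 496 in set5∆, 481 in SET5 Y402A, 517 in set1∆ and 620 in set1∆ set5∆, with a ratio of 0.57 for the double deletion, inside the Ty1 range. YIL080W stood at 15.9, 13.4, 15.2, 13.7 and 14.6 FPKM, and YIL082W at 17.8, 21.2, 17.5, 19.0 and 19.5, in the same order. Their ratios in the double deletion were -0.11 (0.077 with strains scaled to equal sums) and 0.13. Neither entered the Ty3 medians or sums, though their IDs resemble that of the Ty3 frame YIL082W-A.

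The second comparison asked what the loss of SET1 alone goes with. Ty1 and Ty2 frames were slightly higher in set1∆, with median ratios of 0.16 and 0.18, and 31 of 33 Ty1 and 8 of 9 Ty2 frames stood above the wild type, against 49.6% of all features. At least 25% higher was 1 of the 47, YLR035C-A, against 16.3% of all features, and 0 were 1.5-fold higher, against 6.97%. At least 20% lower was 1, the Ty3 Gag frame YGR109W-A (-0.58), against 10.4%. The exceptions below the wild type were the Gag frames YAR010C and YDR170W-A in Ty1, and YLR410W-B (-0.04) in Ty2. Over the 2 Ty1 Gag frames the median was -0.16, against 0.17 over the 31 Ty1 Gag-Pol frames. The Ty1 Gag frame outside the members, YLR256W-A, was also lower (-0.29). The Ty1 rise in set1∆ was thus seen in Gag-Pol frames and not in these few Gag frames, and the cause was not tested. Of the 50-base sequences of YAR010C and YLR256W-A, 0% and 2.51% are found once in the genome. All those of YAR010C are also in the Gag-Pol frame YPR137C-B, so the values of the 2 kinds are not separate measurements. The Ty1 Gag-Pol frames alone ranged from 0.13 to 0.33. With quantile-normalized values the Ty2 median was 0.074.

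The third comparison asked what the change of SET5 alone goes with. In set5∆, Ty1 frames had a median ratio of 0.042 (0.0078 with strains scaled to equal sums), with 32 of 33 above the wild type, and Ty2 frames one of -0.082, with 8 of 9 below it. Of all features, 50.1% were above and 49.7% below. At least 25% higher were 0 of the 47, against 6.31% of all features, and the Ty3 Gag frame YGR109W-A (-0.45) was the 1 member at least 20% lower, against 3.64%. In SET5 Y402A, the median was 0.11 over Ty1 with 33 of 33 above the wild type, and 0.039 over Ty2 (-0.0032 with quantile-normalized values) with 9 of 9 above, against 48.5% of all features. Both Ty3 frames were slightly lower, at -0.13 and -0.14. In that strain 0 of the 47 were at least 25% higher, against 9.88% of all features, and 0 at least 20% lower, against 5.55%. Set directly against set5∆, SET5 Y402A had a median of 0.07 over Ty1 and 0.12 over Ty2, with 32 of 33 and 8 of 9 frames above set5∆, against 47.9% of all features.

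Among strains, 30 of the 33 Ty1 frames kept 1 order of levels, from the wild type as the lowest through set5∆, SET5 Y402A and set1∆ to set1∆ set5∆ as the highest, an order held by 3.59% of all features. This order was picked out after the Ty1 values were seen. The steps between neighbours among the first 4 strains were small, and with 1 value per strain none can be set against a replicate error. In Ty2, 8 of 9 frames were lowest in set5∆, against 14.3% of all features. Of the 47 members, 43 were highest in the double deletion, against 27% of all features.

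Further comparisons took each single deletion as the starting point. Against set1∆, where only SET5 is additionally missing, the double deletion had a median ratio of 0.33 over Ty1, with 33 of 33 frames above, and of 0.22 over Ty2, with 9 of 9 above. Of all features, 50.1% were above. At least 25% higher were 18 Ty1 frames and 1 Ty2 frame, against 3.94% of all features, and 0 were 1.5-fold higher, against 1.02%. YDR170W-A (0.55) and YDR365W-B (0.53) stood highest. Against set5∆, where only SET1 is additionally missing, the medians were 0.46 over both Ty1 and Ty2, again with 33 of 33 and 9 of 9 frames above, against 50.5% of all features. There, 30 Ty1 and 8 Ty2 frames were at least 25% higher, against 18.7%, and 4 and 1 were at least 1.5-fold higher, against 8%. These comparisons share the double deletion's values and are not independent of each other.

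The last comparison asked whether the double deletion differs from what the single deletions would give together. The summed FPKM of the Ty1 frames was 2645 in the wild type, 2989 in set1∆, 2717 in set5∆ and 3810 in set1∆ set5∆. Multiplying the ratios of the single deletions gives 3071, so the double deletion was 1.24 times that value. For Ty2 the sums were 242, 272, 229 and 319 FPKM, against a product of 258, which is 1.23 times. For Ty3 the sums were 20.9, 17.0, 18.0 and 17.7 FPKM, against a product of 14.7, which is 1.21 times and comes from 1 element. The sums were set against the product after the values were seen. Frame by frame, the interaction (the log2 ratio of the double deletion to the wild type, less those of set1∆ and set5∆) had a median of 0.30 over Ty1 and of 0.30 over Ty2. It was above 0 in 33 of 33 Ty1 and 9 of 9 Ty2 frames, against 49.8% of all features. It amounted to at least 25% in 12 Ty1 and 4 Ty2 frames, against 6.91% of all features. The smallest Ty1 value was 0.02.

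**Figure D3:**
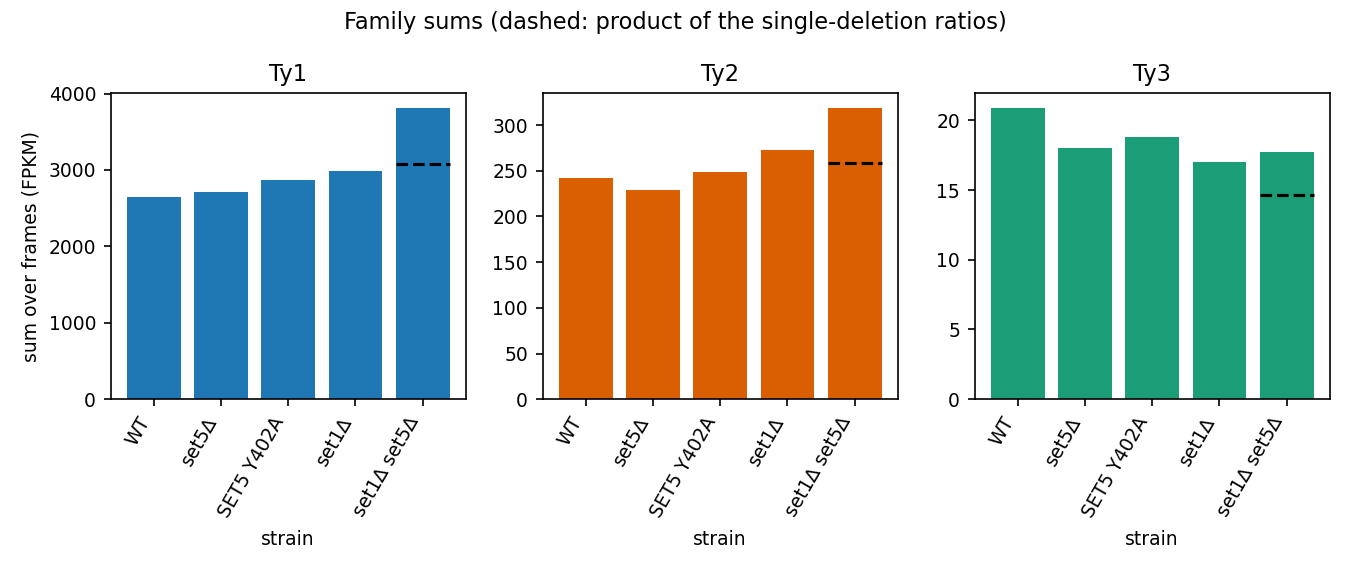
Summed FPKM of the Ty1, Ty2 and Ty3 frames in the 5 strains (linear axis from 0, scales differ by family). The dashed line on the double deletion marks the wild-type sum multiplied by the ratios of both single deletions: 3071 for Ty1, 258 for Ty2 and 14.7 for Ty3. The bars of the double deletion stand at 3810, 319 and 17.7.

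Within Ty1, copies differed in the size of their ratio in the double deletion, from 0.36 to 0.71 among the 31 Gag-Pol frames. Frames with more 50-base sequences shared with Ty2 had higher ratios (Spearman's rho = 0.68 over 31 frames). YDR098C-B, which shares 17.6% of them with Ty2, stood at 65.4 FPKM in the wild type and 102 in the double deletion, a ratio of 0.63. YER160C, which shares 4.50%, stood at 54.6 and 70.4 FPKM, a ratio of 0.36 and the lowest of the 31. YDR261C-D went the other way: it shares 4.03% and stood at 113 and 180 FPKM, a ratio of 0.67. This measure was added after the ratios were seen, and it is the strongest of 6 such correlations computed, 3 measures in each of Ty1 and Ty2. The frames share reads, library and base composition, so it is a description of these values only. The share of sequences found once in the genome showed little relation to the ratio (rho = -0.10), and the mean level a weaker one (rho = 0.39). Over the 9 Ty2 frames, whose share found in Ty1 lay between 14.6% and 17.8%, rho was -0.02 for that share, -0.08 for the share found once and -0.30 for the mean level.

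**Figure D4:**
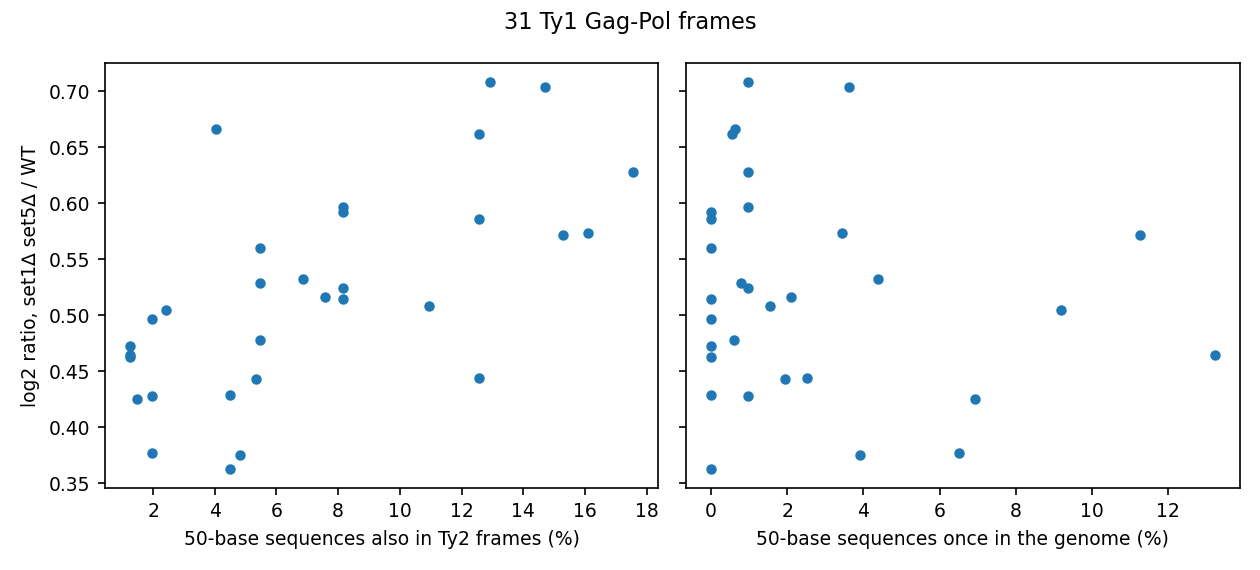
Log2 ratio of set1∆ set5∆ to the wild type for the 31 Ty1 Gag-Pol frames, against the share of their 50-base sequences also found in Ty2 frames (left) and found once in the genome (right), both in percent. Each point is 1 frame. The left cloud slopes upward (rho = 0.68) and the right one does not (rho = -0.10).

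The genomic setting of the elements was examined as a property the choice of members did not use. The frames lay in 40 annotated elements on 14 chromosomes. A tRNA gene stood within 1000 bases of 23 of 30 Ty1 elements, 6 of 9 Ty2 elements and the Ty3 element, which is 15 bases from one. The same held for 6.29% of 5911 other coding genes. Only 1 element, the Ty1 that carries YHR214C-B, lay among the outermost 10 coding genes of a chromosome. YHR214C-B stood at 66.1 FPKM in the wild type and 90.2 in the double deletion, a ratio of 0.44.

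The nearest coding genes on either side of the elements stood near the background. Of 70 such neighbours compared, 39 were above the wild type in set1∆ set5∆, against 50.6% of all features, with a median ratio of 0.06. At least 25% higher were 14, against 18.6% of all features. Against set1∆, where the Ty1 median was 0.33, 36 of 70 neighbours were above, with a median of 0.0058, and 50.1% of all features were above.

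Ty4 and Ty5 frames were not among the 47 members, but the table holds 6 of them. The Ty4 Gag-Pol frames YHL009W-B and YJL113W stood at 3.60 and 3.23 FPKM in the wild type and at 4.21 and 3.45 in the double deletion, with ratios of 0.18 and 0.07. The third Ty4 Gag-Pol frame, YPL060C-A, went from 1.73 to 0.889 FPKM, and the Ty4 Gag frame YJL114W from 1.27 to 0.847. These values are low and the depth is unknown. The Ty5 frames YCL074W and YCL075W, annotated as pseudogenes on chromosome III, were listed at 0 in the wild type, set5∆ and SET5 Y402A. They stood at 0.109 and 0.332 FPKM in set1∆ and at 2.81 and 1.61 FPKM in set1∆ set5∆. Both Ty5 frames and YJL114W had a mean below 1 FPKM and were not among the 6541 features.

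Genes known to act on Ty elements were described from 5 lists, all of whose members were measured. In set1∆ set5∆, 0 genes of any list were at least 25% higher than in the wild type, against 18.6% of all features, and 50.6% of all features were above it. The 5 list medians were below 0, and between 0.084 and 0.16 with strains scaled to equal sums, which moves the median of all features to 0.20. Of 19 genes of Ty transcription, 7 were above and 12 below the wild type, with a median of -0.09. GCR1, an activator of glycolytic genes that also binds Ty elements, had 50.6 FPKM in WT, 60.8 in set5∆, 72.5 in SET5 Y402A, 37.7 in set1∆ and 38.0 in the double deletion (-0.41). TYE7, a helix-loop-helix factor named for its effect on Ty-driven genes, stood at 229, 292, 310, 169 and 174 FPKM in that order (-0.40). Both were thus higher in the SET5 mutants and lower without SET1. STE12 and TEC1, which together activate Ty1 transcription, stood at 52.4 and 62.4 FPKM in the double deletion, against 64.3 and 68.9 in the wild type. At least 20% lower were 2 of these 19, against 12.8% of all features.

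Of 14 genes of histone supply and histone chaperones, 5 were above and 9 below the wild type in the double deletion, with a median of -0.04. MSI1, a subunit of chromatin assembly factor 1, stood at 38.6 FPKM in the wild type and 27.4 in the double deletion (-0.48), and SPT21, an activator of histone genes, at 21.2 and 25.1 (0.23). Of 10 genes that restrict transposition, 4 were above and 6 below, with a median of -0.08. RTT107, a DNA repair scaffold, stood at 34.4 and 27.6 FPKM (-0.31), and FUS3, the mating kinase that limits Ty1, at 89.8 and 72.8 (-0.30). Of 10 genes of RNA turnover and other cofactors, 1 was above and 9 below, with a median of -0.12. LSM1, of the mRNA decapping machinery, stood at 278 and 237 FPKM (-0.22), DHH1, a decapping helicase, at 62.9 and 53.7 (-0.22), and XRN1, the cytoplasmic exonuclease, at 81.7 and 73.8. Of 8 RNA polymerase III and TFIIIB genes, whose products mark the sites of Ty1 insertion, 2 were above and 6 below, with a median of -0.04. RPC31 stood at 192 and 158 FPKM (-0.28) and RET1 at 54.7 and 61.2 (0.16).

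The scaling between strains bears on the size of these differences. The summed FPKM of all features differed between strains. When every strain was scaled to the same sum, the median of all features moved to 0.20 in set1∆ set5∆ against the wild type, and the Ty1 and Ty2 medians to 0.71 and 0.57. Centred on the median of all features, they were 0.50 and 0.36. The Ty3 median was below 0 in this comparison under every scaling tried.

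**Figure D5:**
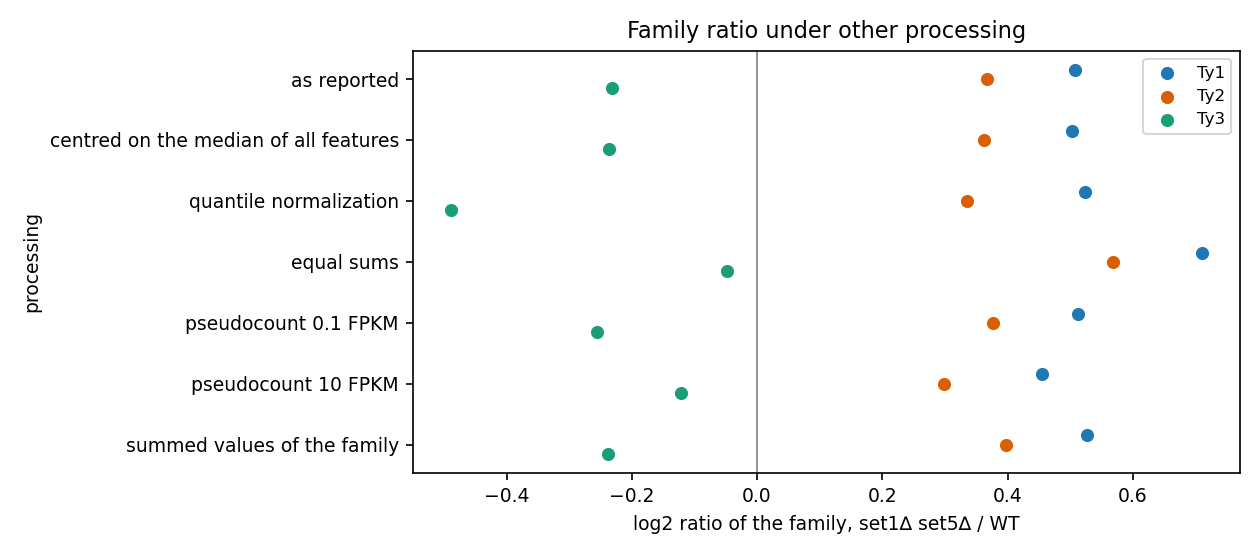
Log2 ratio of set1∆ set5∆ to the wild type for each family under 7 ways of processing: as reported, centred, quantile-normalized, scaled to equal sums, with pseudocounts of 0.1 and 10 FPKM, and from the summed values of the family. Points are family medians, or the ratio of sums in the last row. Ty1 stays between 0.46 and 0.71, Ty2 between 0.30 and 0.57, and Ty3 between -0.49 and -0.05.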

How the data were processed

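Libraries were made from 8 µg of total RNA with the Illumina TruSeq RNA v2 kit, per the labels' protocols. The authors deposited 1 table with 1 column per strain and no unit in its header. Its values were taken as the authors' FPKM: they are not whole, their totals are too large for CPM or TPM, and short features hold the highest. Per the submitters' processing notes, the tools were R 2.15.1, Cufflinks 2.0.2 with Cuffdiff, TopHat2 2.0.5 and FastQC. The sources used here state neither the build, the annotation nor how replicates were combined. The table had 0 unused columns.

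Ratios were log2((FPKM + 1)/(reference FPKM + 1)), which understates low features, for features whose mean reached 1 FPKM. Counts used 1.5-fold, with a difference of 25% higher or 20% lower as an alternative and 2-fold beside them, and background shares are over all 6541 features. Families came from RefSeq R64, and sharing was counted over every 50-base sequence of a frame, both strands of the genome searched. Of the 47 frames, 44 matched R64 by locus tag. Coordinates are those of R64, which may not be the table's build. They were used for families, sequences and their sharing, motifs, neighbours, tRNA distances and the distance from chromosome ends. Frames named were the highest, middle and lowest of each family by mean, the extremes of the double-deletion ratio, all Ty3 frames, up to 2 genes per list, and others chosen after their values were seen. The members, lists and comparisons were chosen with earlier results of these data known. The sharing with Ty2, the sums against the product of single deletions, the motif search and the tRNA distances were added after the values were seen. A split of Ty1 frames by sharing with Ty2, at a limit set after seeing the values, was computed and dropped. The code for fold counting was run with Python 3.11.15 on simulated 2-fold changes, counted at 1.5-fold. That run does not bear on the smaller differences reported here.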

Additional observations from a re-analysis of the deposited data

Results flagged for a closer look

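The loss of SET5 went with opposite signs in some families, depending on SET1. The Ty2 median log2 ratio was -0.082 in set5∆ against the wild type and 0.22 in set1∆ set5∆ against set1∆. For the 2 overlapping Ty3 frames the values were -0.19 and 0.041, and the latter was -0.03 with quantile-normalized values. The Ty2 median also had opposite signs in the SET5 mutants, at -0.082 in set5∆ and 0.039 in SET5 Y402A against the same wild-type values (-0.0032 with quantile-normalized values). None of these differences was tested, since each strain has 1 value.

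Outside the members, the Ty5 pseudogenes were flagged. YCL074W and YCL075W were listed at 0 in the wild type and stood at 2.81 and 1.61 FPKM in set1∆ set5∆. No fold is given against a value listed at 0, and the difference was not tested.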

How the results depend on the processing

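No paired analysis was possible because the table holds 1 combined value per strain, so the replicate numbers of the labels have no columns. Fits without a replicate were not run for the same reason. A value was counted as moved where it changed by more than 0.1 (log2), a tolerance set after the files were seen. By the same late choice only values past 25% were held to their sign, and none of those reversed. Centring, dropping the filter and a pseudocount of 0.1 FPKM moved none of the family values. No member was listed at 0, and a minimum mean of 10 FPKM left no Ty3 frame.

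With strains scaled to equal sums, which shifts all features upward in set1∆ (by 0.10) and the double deletion, Ty1 and Ty2 medians moved to 0.26 and 0.28 in set1∆ against the wild type, to 0.71 and 0.57 in set1∆ set5∆ against the wild type, to 0.69 and 0.69 against set5∆, and to 0.43 and 0.43 in the interaction. Ty3 moved to -0.047 against the wild type, 0.17 against set5∆ and 0.35 in the interaction. For set1∆ set5∆ against the wild type, Gag frames of Ty1 moved to 0.42 and of Ty3 to -0.44, and Gag-Pol frames of Ty1 to 0.72, of Ty2 to 0.57 and of Ty3 to 0.34. Neighbour genes moved to 0.26, genes of histone supply to 0.16, RNA polymerase III to 0.16, restriction to 0.12, RNA turnover to 0.084 and transcription to 0.11.

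With quantile normalization, the Ty2 median in set1∆ was 0.074, and Ty3 stood at -0.46 in set1∆, -0.49 in the double deletion and -0.29 against set5∆, its Gag frame at -0.92, its Gag-Pol frame at -0.059, and its share of FPKM in the double deletion at 0.000685%. With a pseudocount of 10 FPKM, Ty3 stood at -0.15 in set1∆, -0.12 in the double deletion and 0.13 in the interaction, and its Gag frame at -0.33. With the Gag-Pol frame alone, Ty3 stood at 0.029 in set1∆, 0.063 in set5∆, 0.15 in the double deletion, 0.090 against set5∆, -0.20 in SET5 Y402A against set5∆ and 0.061 in the interaction.

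The 9 members at least 1.5-fold higher in the double deletion than in the wild type became 4 with a pseudocount of 10 FPKM, 34 with equal sums and 40 at 25% higher. The 5 against set5∆ became 3, 36 and 39. The cause of these moves was not tested beyond the settings' own construction.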
